A study of Mus musculus with 6 samples.

Results

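Chromatin accessibility at 46 mouse genes of the cell cycle and of DNA replication was described in brown pre-adipocytes, from which brown fat cells form. The set holds cyclins, cyclin-dependent kinases (CDKs), CDK inhibitors, pocket proteins, E2F factors, replication licensing factors, mitotic kinases and proliferation markers, with Myc and the anti-proliferative genes Btg1 and Btg2. They are 46 of the 21883 protein-coding genes whose ends are annotated on the chromosomes used. A peak belonged to a gene if its summit, the point of highest fragment density, lay nearest to one of that gene's ends and within 100 kb of it. A gene-end peak had its summit 1 kb or less from an end and a distal peak lay farther away. All 46 genes had at least 1 such peak in some library.

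The assay was ATAC-seq, in which a transposase cuts and tags open DNA. The cells are a line labelled BAT, of cell type brown pre-adipocyte, and all are labelled WT (wild type). The groups are day 0 and day 1 of differentiation toward mature brown adipocytes, with 3 libraries each. The series title concerns deletion of RUNX1 or RUNX2 in adipocytes, and no deleted sample was used. The agents that induce differentiation, the number of clones behind the line and whether replicates were separate cultures are not given in the sources used here, so the spread between libraries may be technical.

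Day 0 libraries held 8127635 to 11011889 fragments and 39211 to 55511 peaks, and day 1 libraries 4919755 to 7302457 fragments and 12556 to 23274 peaks. Depth therefore moved with the day, and its part in each result by day was not tested. Day 1 replicate 3 stood apart, with the most fragments and the fewest peaks of its day. For this reason presence was counted in the deposited lists and again in equal lists, the 12556 strongest peaks of each library by q value. Of 7 pre-adipocyte markers, Pdgfra, Zfp423, Dlk1 and Cd34 had a gene-end peak in no library, Pparg in 1 day 0 library, Cebpb in 2 libraries of each day, and Ebf2 in 3 day 0 libraries and 1 day 1 library. Among the mature adipocyte markers Ucp1, Prdm16 and Cidea had none, Adipoq had 1 in 1 library of each day, and Fabp4 had 1 in 3 day 0 and 2 day 1 libraries. Of the endothelial, immune and muscle markers, 4 each, Kdr had a gene-end peak in 3 day 0 libraries and 1 day 1 library, Cd68 in 3 day 0 libraries and Myod1 in 1 day 0 library, and the other 9 in none.

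As background, D-type cyclins with Cdk4 or Cdk6 and E-type cyclins with Cdk2 phosphorylate the pocket proteins, which then release E2F transcription factors to switch on genes for DNA synthesis. Inhibitors of the CDK families hold this step back, and pocket proteins with E2F factors keep the same genes silent in resting cells. Pre-adipocytes grown to confluence leave the cell cycle, and in several pre-adipocyte lines the hormonal inducers bring a short round of division, mitotic clonal expansion, before they differentiate.

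Sequence was looked at first where these regulators are known to act. RefSeq start sites (GRCm38.p6) were at hand for 35 of the 46 genes, with 42 starts in all. Cdkn1c, Myc, E2f4, Ccnd1, Mcm4, Rb1, Ccnd2, Ccna2, E2f5, Ccne2 and Aurkb had no entry. In the 300 bases around each start, from 250 before it to 50 after, 4 motifs were searched on both strands. An E2F motif, TTTGGCGC or TTTCGCGC, was present in 8 of 42 promoters (19%) against 0.813% of all 32851 promoters. CCAAT, the box bound by NF-Y, was present in 64.3% against 37.4%. TTTGAA, the cell cycle homology region (CHR) of late cell cycle genes, was present in 28.6% against 17.9%. CACGTG, the E-box bound by Myc, was present in 9.52% against 7.15%. Neighbouring motifs can share bases at their edges, and alternative starts of 1 gene can share a window. Median GC content was 61.7% in the promoters of these genes and 52.7% in all, and its part in the motif counts was not tested. In the 67 promoters of 56 other cell cycle genes with an entry, the E2F motif was present in 10.4%, CCAAT in 55.2%, TTTGAA in 28.4% and CACGTG in 16.4%. Over the 21262 promoters of coding genes the shares were 1.05%, 38.2%, 16.0% and 7.84%, with a median GC content of 56.3%.

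**Figure D1:**
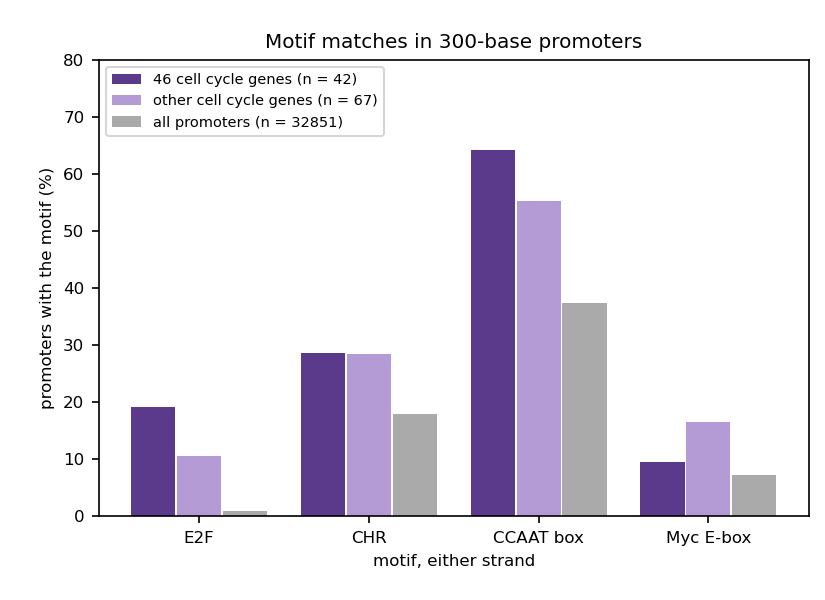
Bars give the percentage of 300-base promoters with at least 1 match to each of 4 motifs, for 42 promoters of the cell cycle genes, 67 of other cell cycle genes and all 32851. The E2F bars stand at 19%, 10.4% and 0.813%, the widest ratio of the 4 motifs.

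The 8 promoters with an E2F match hold 11 matches on either strand, and they are shown because this motif stood farthest above its share in all promoters. Each line gives 30 bases of the sense strand around the first match, 5′ to 3′, with every match inside these 30 bases in capitals. Overlapping matches run together, and the Mcm6 line holds 2 of the 3 matches of its promoter. Their places in GRCm38.p6, in the same order, are chr1:20820263-20820292 (minus strand), chr1:128359797-128359826 (minus), chr8:75109347-75109376 (plus), chr5:138171849-138171878 (minus), chr8:122568035-122568064 (plus), chr10:69353025-69353054 (minus), chr2:157204534-157204563 (minus) and chr4:136172294-136172323 (plus).
Mcm3: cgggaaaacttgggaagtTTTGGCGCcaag
Mcm6: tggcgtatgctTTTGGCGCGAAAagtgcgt
Mcm5: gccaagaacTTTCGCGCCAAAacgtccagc
Mcm7: gggtgacgacgTTTCGCGCcaatttcggtt
Cdt1: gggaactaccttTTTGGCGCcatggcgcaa
Cdk1: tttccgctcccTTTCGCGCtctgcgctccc
Rbl1: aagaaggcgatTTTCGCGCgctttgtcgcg
E2f2: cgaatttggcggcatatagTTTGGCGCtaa

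Of the 8 genes, 5 serve replication licensing. Mcm3, Mcm5, Mcm6 and Mcm7 encode subunits of the MCM helicase and Cdt1 encodes the factor that loads it. In the deposited lists the motif lay inside a peak in all 6 libraries at Mcm3, Mcm5, Mcm6 and Cdk1. At Mcm7, Cdt1 and Rbl1 it lay inside a peak in 3 day 0 libraries and 1 day 1 library, and at E2f2 in none. Cdt1 still had a gene-end peak, and Mcm7 a peak within 1 kb of a start, in all 6 libraries. Some day 1 peaks thus stopped short of the motif. The strongest Cdt1 peaks were 763 to 1023 bp wide at day 0 and 438 to 593 bp at day 1, and the part of depth in this was not tested. A match describes letters only, and binding was not measured.

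At gene ends these genes were open more often than coding genes at large. A gene-end peak was found at 38, 37 and 36 of them at day 0 and, at day 1, at 33, 34 and 29. These are means of 37.0 ± 1.00 and 32.0 ± 2.65 genes (SD, n = 3 each), or 80.4% and 69.6% of the 46, against 42.3% and 32.9% of all coding genes. The days did not overlap, and day 1 was lower by 5 genes. In equal lists the order turned around. Day 0 libraries then gave 27, 28 and 27 genes and day 1 libraries 31, 31 and 29, or 27.3 ± 0.577 and 30.3 ± 1.155 genes (SD, n = 3 each), 59.4% and 65.9% of the 46. The share of all coding genes moved the same way in both kinds of list, with 22.8% (day 0) and 28.0% (day 1) of genes in the equal ones. A larger share of cells with an open site and a more open site in each cell cannot be told apart in these bulk libraries.

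**Figure D2:**
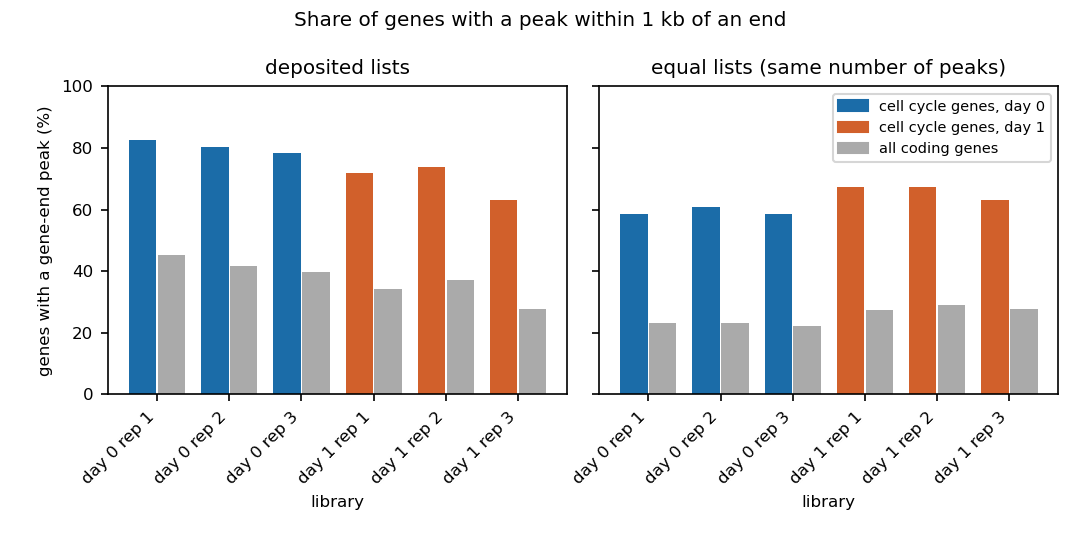
Bars give, for each of the 6 libraries, the percentage of the 46 cell cycle genes (blue, day 0; orange, day 1) and of 21883 coding genes (grey) with a peak within 1 kb of an end. Day 1 stands below day 0 in the deposited lists, on the left, and above it in the equal lists, on the right, in the coloured and the grey bars alike.

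In the deposited lists, 26 of the 46 genes (56.5%) had a gene-end peak in all 6 libraries, against 23.5% of all coding genes. In equal lists the number was 21 (45.7%), against 15.4%. Another 6 genes (13%) had a gene-end peak in no library, against 49.8%. Only 1 gene, Cdkn1c, had a peak in all 3 day 0 libraries and no day 1 library, or 2.17% against a background of 2.41%, so the share was near that of genes at large. In the other direction 0 of the 46 qualified, against 0.105%. Equal lists gave 0 genes for day 0, against 0.283%, and 2 for day 1, Cdkn2a and Aurkb (4.35%), against 1.57%. Absence from an equal list is a lower rank: both genes had gene-end peaks in all 6 deposited lists.

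**Figure D3:**
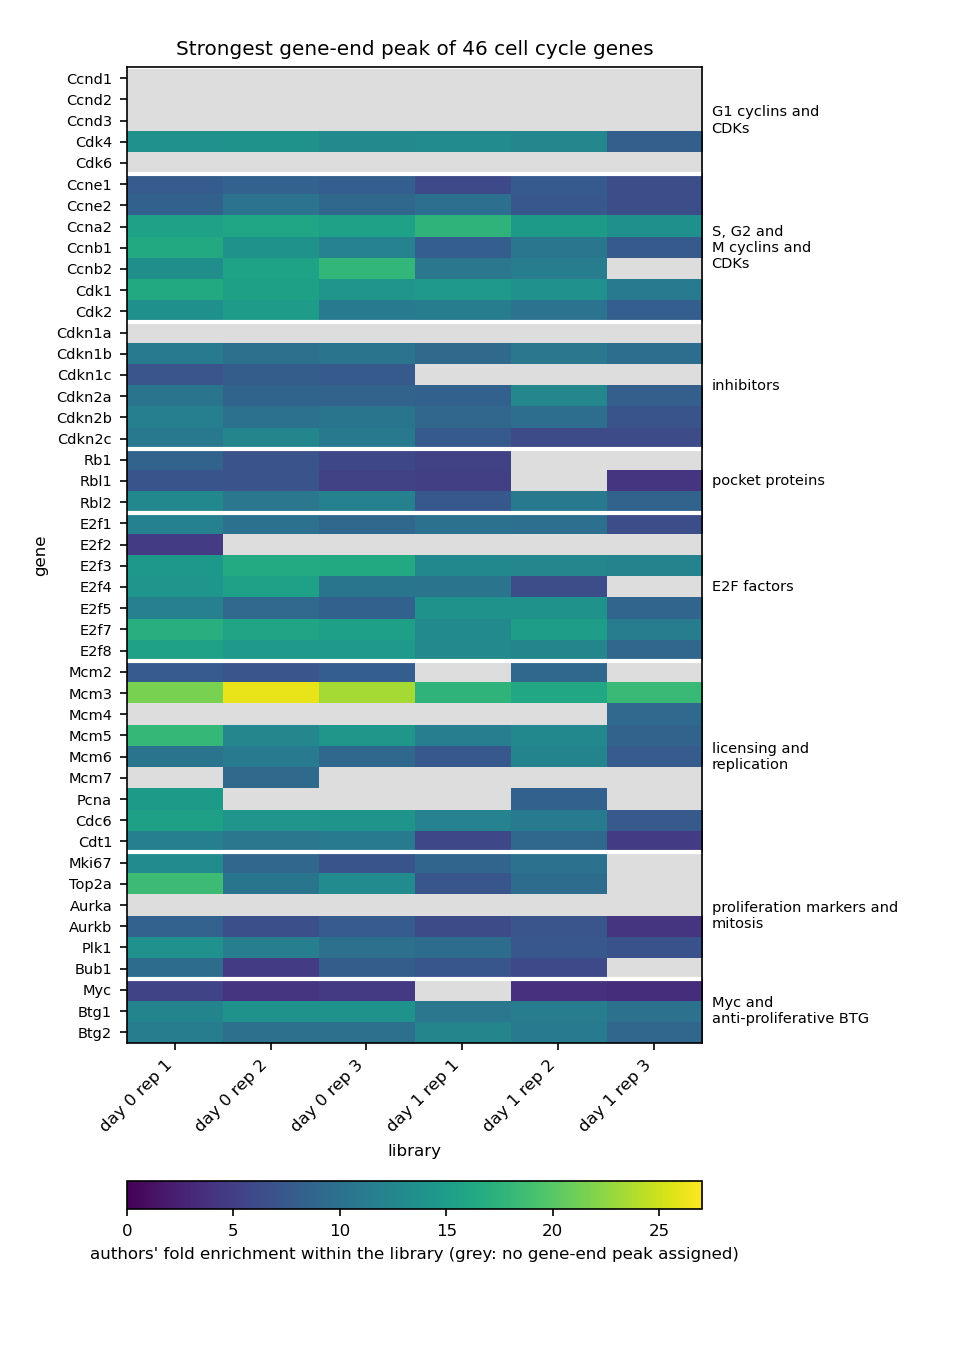
Each row is a gene, grouped by role, each column a library, and the colour the authors' fold enrichment of the strongest gene-end peak within that library, on a linear scale. Grey cells mark no gene-end peak: the D cyclins, Cdk6, Cdkn1a and Aurka are grey throughout, Cdkn1c is grey at day 1, and Mcm3 has the highest values, 16.2 to 26.1.

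To set the days side by side without comparing peak heights across depths, each gene was ranked within its library. The 5132 coding genes with a gene-end peak in all 6 libraries entered, 26 of the 46 among them, and a percentile of 100 marks the highest fold enrichment. The other 20 genes lacked a peak in at least 1 library and were not ranked. The percentile was higher in every day 1 than in every day 0 library for 6 of the 26 (23.1%), against 10.0% of the 5132 genes, and lower for 3 (11.5%), against 8.85%. The remaining 17 overlapped. The median difference, day 1 minus day 0, was 2.80 percentile points over the 26 and 0.531 over all genes, and 16 of the 26 differences were positive. Exact two-sided permutation of 3 libraries against 3 cannot give a p below 0.1, and after Benjamini-Hochberg adjustment over the 5132 genes the smallest p was 0.53. No difference passed 0.05, with 0 genes under that value even before adjustment, so these rank differences are given as values.

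**Figure D4:**
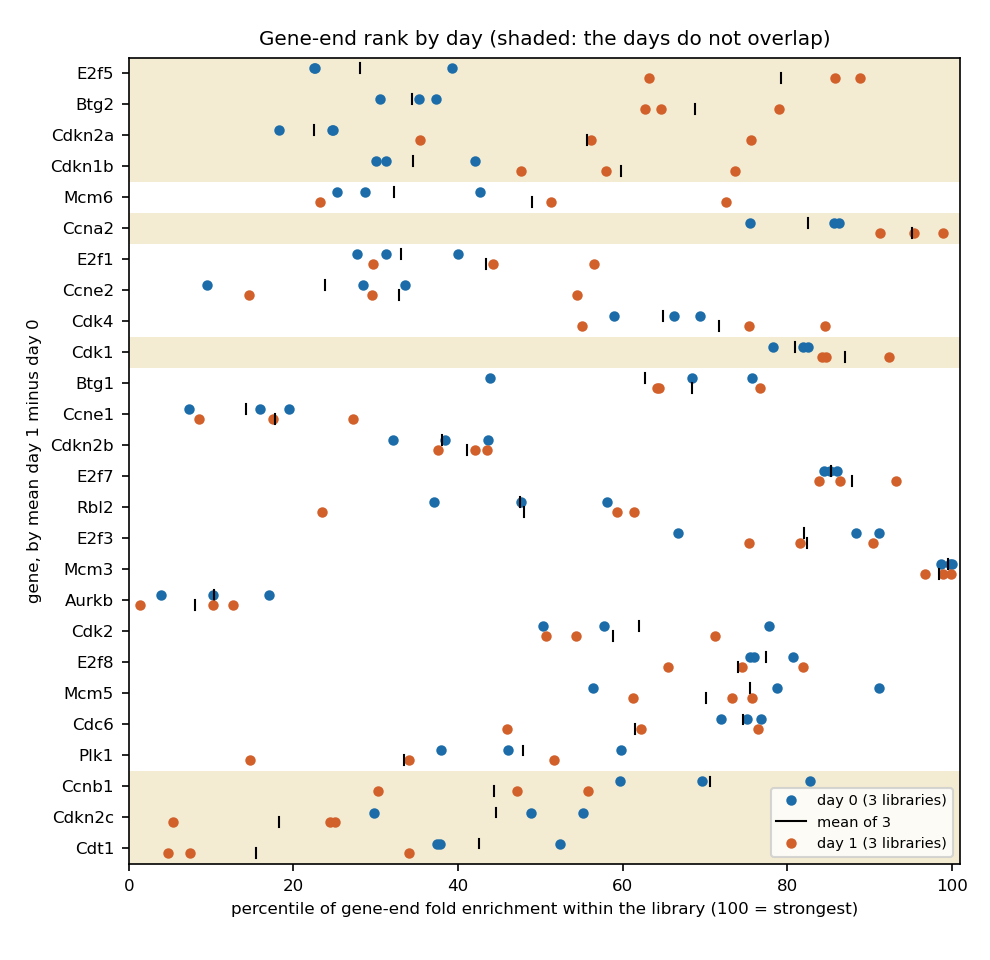
Points give the percentile of gene-end fold enrichment in each library for the 26 ranked genes, blue for day 0 and orange for day 1, with the mean of 3 as a black tick. Shaded rows are the 9 genes whose days do not overlap. E2f5, Btg2, Cdkn2a and Cdkn1b, at the top, have the largest shifts to the right from day 0 to day 1, and Cdt1, Cdkn2c and Ccnb1, at the bottom, shift to the left.

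Among the G1 cyclins and kinases, which carry cells from growth signals to the start of replication, Cdk4 alone had gene-end peaks. Its fold enrichment was 12.7 to 13.9 at day 0 and 8.14 to 13.1 at day 1, and its percentiles overlapped. Ccnd1, the cyclin D gene most tied to mitogen signals, had no gene-end peak in any library, nor had Ccnd2, Ccnd3 and Cdk6. Around Ccnd1, 8 distal regions were called, and 1 of them was called in all day 0 and no day 1 library. It lay 24.3 kb from the gene at chr7:144964033-144964198, with fold enrichments of 7.38, 5.70 and 6.46. The nearest of the 8, at chr7:144941359-144941910, lay 1.8 kb outside the gene, beyond the 1 kb limit of a gene-end peak. Its fold enrichments were 8.32, 6.28 and 7.72 at day 0 and 6.46 in day 1 replicate 2. Around Ccnd2 a region inside the gene, 1.14 kb from its end at chr6:127150768-127151142, was called in all 6 libraries, with 8.11, 6.98 and 8.17 at day 0 and 9.90, 6.51 and 7.90 at day 1. At Ccnd3 the second RefSeq start had a peak in all 6 libraries, from 5.94 to 10.9, whose summits lay nearer to an end of Bysl. A peak within 1 kb of the RefSeq start of Cdk6, inside the annotated gene, was called in 1 day 0 and 2 day 1 libraries. The second Ccnd3 start and the Cdk6 start lie inside the annotated genes, more than 1 kb from their outer ends. Within 1 kb of the outer ends of Ccnd1, Ccnd2, Ccnd3 and Cdk6 no peak was called, whichever gene was nearest.

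The S, G2 and M cyclins and kinases were open at their ends almost throughout. All 7 had a gene-end peak in each library apart from Ccnb2, a mitotic cyclin gene, which had none in day 1 replicate 3. The strongest such peaks of Ccna2 and Ccne2 had summits 814 to 941 bp and 832 to 893 bp from an end, near the 1 kb limit. Ccna2 encodes cyclin A2, which works in S phase and G2, and its percentiles were 75.5, 85.7 and 86.2 (day 0) and 98.9, 91.3 and 95.3 (day 1). Cdk1, the kinase that drives entry into mitosis, stood at 82.5, 81.8 and 78.2 and then at 92.3, 84.7 and 84.2. In both genes every day 1 library ranked above every day 0 library, by 12.7 and 6.19 points on average. Without day 1 replicate 1 the Cdk1 difference was 3.42. Ccnb1, which encodes the cyclin B1 partner of Cdk1, went the other way. It ranked at 82.7, 69.6 and 59.6 at day 0 and 30.3, 55.8 and 47.1 at day 1, a difference of -26.2 points (means 70.7 ± 11.6 and 44.4 ± 12.9, SD, n = 3 each). By summit pileup in place of fold enrichment it was -13.2 and the days overlapped. The percentiles of Ccne1, Ccne2 and Cdk2, of the G1 to S transition, overlapped between the days.

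The CDK inhibitors had no common pattern. Cdkn1a, which encodes p21, the inhibitor induced by p53, had no gene-end peak in any library and 1 distal region. Neither of its 2 RefSeq starts had a peak within 1 kb in any library. Cdkn1c, which encodes the related p57, had gene-end fold enrichments of 7.13, 7.98 and 7.65 at day 0 and no peak at day 1. The pileups behind these day 0 peaks were 12 to 14 fragments, and none of them was among the 12556 strongest of its library. Cdkn1b, which encodes p27, an inhibitor of Cdk2 linked to exit from the cycle, had fold enrichments of 11.0, 9.96 and 10.3 at day 0 and 9.34, 10.8 and 9.71 at day 1. Its percentiles were 31.3, 30.03 and 42.1 (day 0) and 47.7, 58.0 and 73.7 (day 1), higher by 25.3 points.

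The INK4 inhibitors, which act on Cdk4 and Cdk6, had gene-end peaks in all 6 libraries at Cdkn2a, Cdkn2b and Cdkn2c. Cdkn2c, which encodes p18, ranked at 29.8, 55.2 and 48.9 at day 0 and at 25.1, 5.42 and 24.4 at day 1, a difference of -26.3 points. Cdkn2b, which encodes p15, overlapped, with means of 38.0 and 41.0. Cdkn2a ranked at 24.7, 18.2 and 24.8 at day 0 and at 35.4, 75.5 and 56.2 at day 1, higher by 33.2 points (means 22.6 ± 3.77 and 55.7 ± 20.1, SD, n = 3 each). Its day 1 libraries were all higher but spread widely.

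Cdkn2a has 2 RefSeq starts on the minus strand, 12427 bp apart. The upstream start is the one known to give the p19Arf transcript and the internal one p16Ink4a. At the upstream start the fold enrichments were 10.3, 8.68 and 8.63 (day 0) and 8.41, 12.5 and 8.22 (day 1). At the internal start they were 12.2, 13.0 and 11.5 (day 0) and 7.35, 8.61 and 8.94 (day 1). The upstream peak was thus the lower of the pair in every day 0 library and the higher in 2 of the 3 day 1 libraries. The ratio of upstream to internal within a library was 0.847, 0.667 and 0.749 at day 0 and 1.14, 1.46 and 0.919 at day 1. The means were 0.755 ± 0.0900 and 1.17 ± 0.271 (SD, n = 3 each), the days did not overlap, and the exact two-sided permutation p was 0.1, the smallest possible. This ratio was chosen after the values were seen.

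The sequences before the starts of Btg2 and Cdkn2a are shown because, after E2f5, these 2 genes had the largest rank differences. The line for each gives the 250 bases before the start on the sense strand, 5′ to 3′, with CCAAT in capitals, from chr1:134079156-134079405 for Btg2 and chr4:89294620-89294869 for the upstream start of Cdkn2a (GRCm38.p6, both on the minus strand).
Btg2: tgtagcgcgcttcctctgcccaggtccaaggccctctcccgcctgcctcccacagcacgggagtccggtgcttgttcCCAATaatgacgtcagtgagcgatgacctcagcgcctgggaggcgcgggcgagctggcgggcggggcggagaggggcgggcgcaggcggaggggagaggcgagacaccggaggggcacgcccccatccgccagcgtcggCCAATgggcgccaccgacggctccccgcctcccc
Cdkn2a: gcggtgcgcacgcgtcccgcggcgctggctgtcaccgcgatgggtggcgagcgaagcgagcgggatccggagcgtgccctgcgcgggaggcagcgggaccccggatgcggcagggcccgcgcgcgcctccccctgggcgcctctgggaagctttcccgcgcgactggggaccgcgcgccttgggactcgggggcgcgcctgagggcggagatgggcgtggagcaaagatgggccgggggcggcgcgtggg

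Peaks covered all 250 bases at Cdkn2a in each of the 6 libraries. At Btg2 they covered all 250 in 5 libraries and 233 in day 1 replicate 3. The Btg2 window held CCAAT 2 times, and the Cdkn2a window held none of the 4 motifs.

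Of the pocket proteins, Rbl2 (p130, the member most abundant in resting cells) had gene-end peaks in all 6 libraries, with overlapping percentiles. Rb1, the retinoblastoma gene, had fold enrichments of 8.56, 6.94 and 5.86 at day 0 and 5.18 in day 1 replicate 1, with no peak in the other 2 day 1 libraries. Rbl1 (p107) had 7.0003, 6.90 and 5.18 at day 0 and 5.11 and 4.20 in day 1 replicates 1 and 3. Rb1 and Rbl1 were thus called in fewer day 1 libraries, at low fold enrichments.

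The E2F genes encode activators (E2f1, E2f2 and E2f3), repressors that pair with pocket proteins (E2f4 and E2f5) and atypical repressors (E2f7 and E2f8). E2f5 showed the largest rank difference of the 26 ranked genes. Its fold enrichments were 11.8, 9.21 and 8.40 (day 0) and 13.8, 13.8 and 8.78 (day 1), and its percentiles 39.3, 22.5 and 22.6 and then 88.8, 85.8 and 63.2. Every day 1 library was higher, by 51.1 points on average (means 28.1 ± 9.68 and 79.2 ± 14.0, SD, n = 3 each; exact permutation p = 0.1). E2f4, of the same class, had peaks of 14.2, 15.5 and 10.5 at day 0, 10.3 and 6.44 in day 1 replicates 1 and 2, and none in day 1 replicate 3. E2f1 ranked at 40.01, 31.3 and 27.8 at day 0 and at 56.5, 44.2 and 29.6 at day 1, which overlap. E2f3, E2f7 and E2f8 overlapped as well, with means from 74.0 to 87.8 over both days. E2f2 had 1 gene-end peak, in day 0 replicate 1, at a fold enrichment of 4.82.

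Mcm3 had the strongest gene-end peaks of the whole set. Its fold enrichments were 21.5, 26.1 and 23.4 (day 0) and 17.5, 16.2 and 18.2 (day 1), and its percentiles ran from 96.7 to 99.95 over the 6 libraries. The E2F match printed above lies under these peaks. Mcm5 and Mcm6, of the same helicase, and Cdc6, which helps to load it, had peaks in all 6 libraries with overlapping percentiles. Cdt1 ranked at 37.8, 37.4 and 52.4 at day 0 and at 7.41, 34.1 and 4.74 at day 1. Its day 1 libraries were all lower, with a mean difference of -27.1 points.

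Mcm2 had gene-end fold enrichments of 7.82, 7.13 and 8.10 at day 0, 9.17 in day 1 replicate 2 and no peak in the other day 1 libraries. Pcna, the sliding clamp of the replication fork, had 14.7 in day 0 replicate 1 and 8.39 in day 1 replicate 2. In its other 4 libraries a peak of 11.4 to 14.4 stood 87 to 152 bp from the end of Pcna but nearer to an end of Cds2. In the same way 5 of 6 libraries gave the peak at Mcm4 to Prkdc, 6 gave a peak at Mcm7 to Ap4m1, and 6 gave the peak 245 to 296 bp from Aurka to Cstf1. Counting every peak within 1 kb of an end, whichever gene was nearer, 30 of the 46 genes had a peak in all 6 libraries. By this looser rule 6419 of the 21883 coding genes did, against 5132 by the nearest end. Pcna, Mcm4, Mcm7 and Aurka were therefore open in all 6 libraries at an end that they share with, or hold close to, a neighbour.

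Mki67 encodes Ki-67, the usual marker of dividing cells. Its gene-end fold enrichments were 13.0, 8.88 and 7.07 at day 0 and 8.81 and 10.2 in day 1 replicates 1 and 2, with no peak in replicate 3. Top2a, the topoisomerase that untangles replicated DNA, and Bub1, of the spindle checkpoint, also lacked a peak in day 1 replicate 3 alone. Plk1, a mitotic kinase, had peaks in all 6 libraries with overlapping percentiles. Aurkb, which corrects chromosome attachments, had low peaks of 8.46, 6.55 and 7.83 at day 0 and 6.20, 7.07 and 4.20 at day 1. Its percentiles overlapped between 1.33 and 17.1, although it counted as day 1 only in equal lists.

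Myc drives growth and division, and its gene-end peaks were low in fold enrichment but less so in fragments. The strongest had fold enrichments of 5.51, 4.20 and 4.57 at day 0, all inside the gene between chr15:61985432 and chr15:61985865. In day 1 replicates 2 and 3 the values were 3.88 and 3.58, with no peak in replicate 1. These day 1 peaks lay elsewhere, below the gene's lower end, at chr15:61984371-61984551 and chr15:61984993-61985166. The values of the days therefore do not belong to the same site. The pileups were 52, 32 and 22 fragments at day 0, where the ranked genes of the set had medians of 49.5, 37.5 and 27.5. In day 1 replicates 2 and 3 they were 22 and 14, against medians of 33.5 and 16.5. Btg1 and Btg2 encode proteins that slow division through mRNA decay, and both had peaks in all 6 libraries. Btg1 ranked at 43.9, 68.4 and 75.7 at day 0 and 64.1, 64.4 and 76.7 at day 1, which overlap. Btg2 ranked at 35.3, 30.5 and 37.3 at day 0 and 79.0, 62.7 and 64.6 at day 1, higher by 34.4 points (means 34.4 ± 3.50 and 68.8 ± 8.89, SD, n = 3 each). Ranked by summit pileup, its difference was 4.05 points and the days overlapped.

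The summits of the start-site peaks sat close to the annotated starts. Of 207 peaks within 1 kb of a RefSeq start of these genes, counted over starts and libraries, 79.7% had their summit within 250 bp, and the median summit lay 71 bp before the start (offset -71 bp). By this rule 26 of the 35 genes with an entry had a start peak in all 6 libraries and 1, Cdkn1a, in none. Start peaks of all other genes were not counted, so these numbers have no background to be set against.

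Away from gene ends, the genes split into a few with many peaks and many with none. Day 0 libraries held 108, 80 and 82 distal peaks and day 1 libraries 43, 50 and 22, or 90.0 ± 15.6 and 38.3 ± 14.6 (SD, n = 3 each). Over all genes, distal peaks went from 29138 ± 6437 to 9476 ± 3638, so the share near the 46 genes was 0.296%, 0.303% and 0.335% at day 0 and higher at day 1, with 0.413%, 0.398% and 0.403%. Equal lists held 23, 18 and 21 (day 0) and 30, 22 and 22 (day 1), or 20.7 ± 2.52 and 24.7 ± 4.62, and the days overlapped. Over all genes the equal lists held 6269 ± 118 and 5472 ± 151 distal peaks, so the share near the 46 genes was 0.289% to 0.372% at day 0 and 0.403% to 0.533% at day 1. Merged over libraries, the deposited peaks made 152 regions near 31 of the 46 genes, 47 of them inside the gene. Regions inside a gene can be annotated starts: at Cdkn2a, Cdkn2c and E2f3 a region covers an internal RefSeq start. The distal class is therefore not free of promoters. Btg1 had 18 regions, Myc 16, Ccne1 12, E2f7 11 and Cdkn2b 10. By contrast 15 genes had none, among them Ccna2, Ccnb1, Cdk2, Cdk4, E2f1, Pcna, Cdt1 and Mcm2, Mcm4, Mcm5 and Mcm7.

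Of the 152 regions, 13 were called in all 6 libraries, 26 in all day 0 and no day 1 library, and 0 in all day 1 and no day 0 library. The 26 lay near 16 genes (34.8%), against 24.2% of all coding genes with such a region, and the 0 stands against 1.43%. Of the remaining 113, 64 were called in 1 library. In equal lists 3 genes (6.52%) had a day 0 only region, Btg1, Cdk6 and Myc, against 6.32%, and 3 (6.52%) had a day 1 only region, Btg1, Btg2 and Mki67, against 3.52%. Btg1 and Myc are also the genes with the most distal regions. The Cdk6 region, at chr5:3300886-3301775 and 39.7 kb from the gene inside the lncRNA gene Gm36470, had 14.1, 12.2 and 13.1 at day 0 and a weaker peak of 5.20 in day 1 replicate 1.

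Downstream of Myc lay the strongest region of the day 0 only class. It was at chr15:62028259-62028880, 38.2 kb from the gene and inside no annotated gene, with 15.6, 12.9 and 15.5 at day 0 and no call at day 1. Another at chr15:62048856-62049323, 58.6 kb away inside the lncRNA gene Pvt1, had 9.81, 12.5 and 11.3. A region farther into Pvt1, at chr15:62078997-62079869 and 89.2 kb away, was called in all 6 libraries, with 16.5, 13.4 and 16.4 at day 0 and 7.57, 9.83 and 9.22 at day 1. These 2 day 0 only regions kept that class in equal lists. These fold enrichments are above those at the ends of Myc, but each is set against its own local background.

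**Figure D5:**
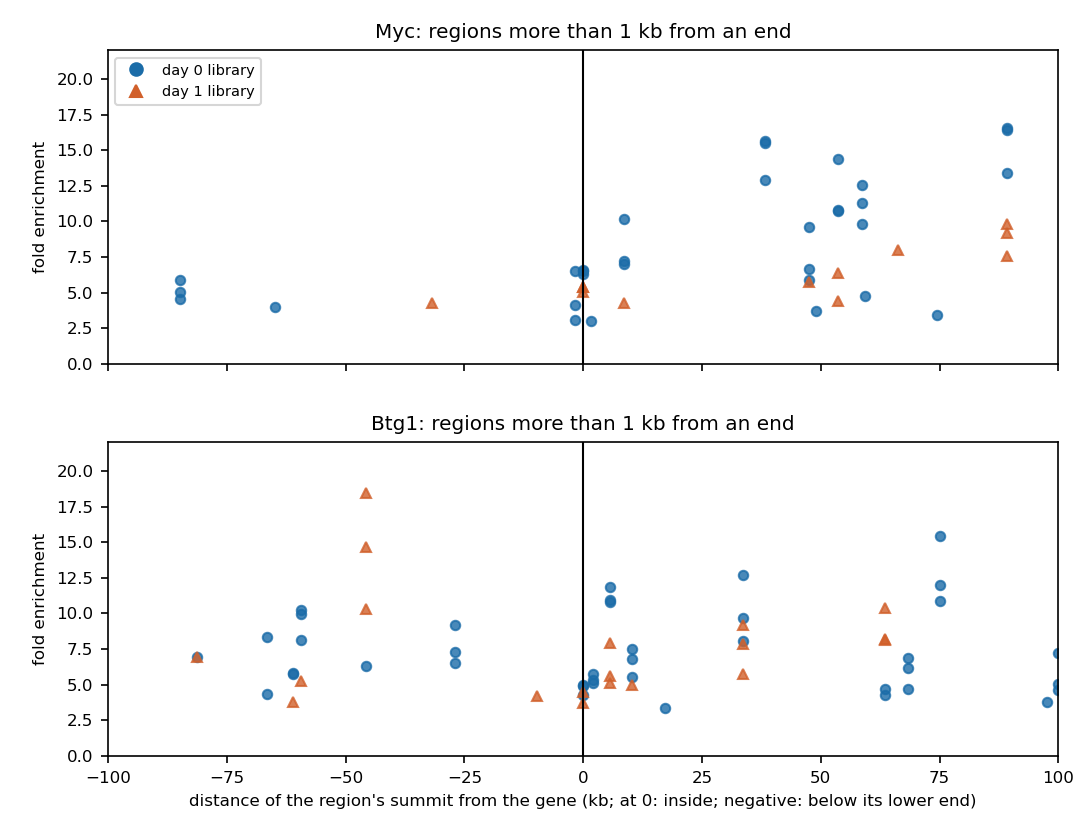
Each point is a distal region in 1 library, placed by the distance of its summit from Myc (top) or Btg1 (bottom) in kb, with the authors' fold enrichment within the library on the vertical axis and regions inside the gene drawn at 0. Around Myc the tallest points are day 0 circles to the right of the gene, and around Btg1 day 1 triangles reach 18.4 on the left, 45.6 kb from the gene.

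Around Btg1 regions of either day stood in the same neighbourhood. The day 0 only region at chr10:96697727-96698246, 75.1 kb from the gene, had 15.4, 10.9 and 12.0 at day 0. On the other side, the region at chr10:96571029-96571541, 45.6 kb away inside the lncRNA gene Gm33843, had 18.4, 14.6 and 10.3 at day 1, against 1 weaker peak of 6.33 in day 0 replicate 2. Another, at chr10:96686135-96686572 and 63.5 kb away, had 8.20, 10.4 and 8.16 at day 1 and 4.70 and 4.24 in day 0 replicates 1 and 2. Both were day 1 only in equal lists.

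The other day 1 only regions of the equal lists also had weaker-ranked day 0 peaks in the deposited lists. The one near Mki67, at chr7:135735719-135736494, had 7.84, 7.59 and 8.01 at day 1 and 12.0, 9.59 and 5.82 at day 0, values that overlap. The one near Btg2, at chr1:134065324-134065704 and 9.35 kb away, had 6.08, 7.56 and 5.99 at day 1 and 4.47 and 5.24 in 2 day 0 libraries. In the day 0 only class, a region 45.1 kb from E2f7 had 14.9, 12.2 and 6.24 and one 3.03 kb from E2f3 had 9.17, 8.63 and 9.31. Regions called in all 6 libraries included one 13.0 kb from Ccne1 with 12.6, 14.4 and 13.5 at day 0 and 8.83, 10.8 and 7.95 at day 1. Another, 3.18 kb from Cdkn1b, had 14.0, 11.8 and 12.6 and then 9.61, 11.9 and 6.57. One 14.0 kb from Btg2 had 12.8, 11.5 and 14.0 and then 8.65, 6.66 and 8.34.

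For comparison, 69 other cell cycle genes were counted the same way. Gene-end peaks in all 6 libraries were found at 39 of them (56.5%, the same share as in the 46), and 1, the flap endonuclease gene Fen1, was day 0 only. Of the 39 ranked, 4 were higher in every day 1 library, Rfc4, Ttk, Cdkn2d and Gadd45a, and 5 lower, Mcm10, Rfc2, Tyms, Incenp and Birc5. Gadd45a, induced by stress and growth arrest, had means of 54.4 ± 8.65 and 86.6 ± 3.81 (SD, n = 3 each), and Tyms, the thymidylate synthase gene, 48.2 ± 10.4 and 15.1 ± 2.50. The median difference was -3.05 points over the 39. These 4 (10.3%) and 5 (12.8%) are near the 10.0% and 8.85% of all ranked genes. No gene could pass 0.05 in the exact permutation, whose smallest possible p is 0.1.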

How the data were processed

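ATAC-seq was measured in 6 libraries, 3 at day 0 and 3 at day 1, grouped by their titles. Tools named, without a role, in the submitters' processing notes are MACS2 2.2.7.1, HOMER 4.11, DiffBind 3.8.4, Bowtie2 2.4.4, Trim Galore 0.6.7, SAMtools 1.15.1 and deepTools 3.5.1, with the build mm10. MACS2 called peaks separately in every library on paired-end fragments with no control, at a q cutoff of 0.05 and with at most 1 fragment per position, per the file headers. The deposited pileup is the signal at the summit in whole fragments, not scaled to depth. The deposited −log10 p and −log10 q set it against a background within the library. Fold enrichment, as deposited, is a ratio that sets pileup against that background, so it varies with depth. It was used to rank or describe peaks within a list, and whether these ranks vary with depth was not tested. The deposited length column gives peak width.

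Summits on chromosomes 1 to 19, X and Y went to the coding gene whose end lay nearest (RefSeq GRCm38.p6, the assembly mm10 names), since the gene table gives no strand. A gene end covers promoters and far ends alike, and exon, intron and UTR positions are not given. Percentiles rank the highest gene-end fold enrichment of each gene among the 5132 genes with one in all 6 libraries. They were compared by exact two-sided permutation with Benjamini-Hochberg adjustment over all 5132. Distal regions are distal peaks merged when they overlap by 1 bp. Promoter sequences are RefSeq's. Python 3.11.15, pandas 2.3.3, NumPy 2.4.6, SciPy 1.17.1 and Matplotlib 3.10.9 were used, and the steps were tested on simulated data. Read counts were not used here, so peaks were not tested by a count model.

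The genes, roles and comparison lists were chosen with earlier results of these data known. Full values are given for genes with a call restricted to 1 day, for genes whose percentiles do not overlap and for 11 genes named beforehand, and distal regions are those with the highest mean fold enrichment per class, at most 2 per gene. Genes, starts and values named beyond that rule, and the 8 E2F sites, were chosen after their values were seen. Promoters are printed for the first 2 with an entry among the 5 non-overlapping genes with the largest rank difference. Alternatives were equal lists, a −log10 q of at least 5, gene ends of 500 bp or 2 kb, a distal limit of 50 kb, any gene end, a 50% overlap, ranks by pileup, a peak in 2 of 3 libraries, RefSeq starts, the replicate block and leaving out each library. Replicate numbers were not used to pair the samples, since the labels do not say what equal numbers share. The correlations of same-numbered libraries, in their deviations from the day means, were -0.00576, 0.0146 and 0.04. These cannot show whether such libraries shared a culture or a processing day.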

Additional observations from a re-analysis of the deposited data

How the results depend on the processing

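The day 1 libraries are shallower, and equal lists match the number of peaks, not depth. In the deposited lists, day 1 minus day 0 was -5 for genes with a gene-end peak and -51.7 for distal peaks, beside a fall in all distal peaks from 29138 to 9476. Equal lists turned both around, to 3 and 4, while all distal peaks still went down, from 6269 to 5472. So did equal lists of 20069 peaks without day 1 replicate 3, an alternative chosen after seeing the data, with 1.5 and 8.5. In equal lists day 0 only gene-end calls went from 1 to 0, day 1 only calls from 0 to 2, genes with a day 0 only distal region from 16 to 3, and those with a day 1 only region from 0 to 3. Without day 1 replicate 3 these equal lists gave 0, 0, 3 and 7. With fewer day 1 libraries the rule is looser, and the share of all coding genes was not counted for it. The 7 therefore cannot be set against a background. A −log10 q of at least 5 gave 2 genes with a day 0 only gene-end call, Rb1 beside Cdkn1c, and 1 with a day 1 only distal region. The share of all coding genes was not counted at this cutoff either.

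With each library left out in turn, the difference in genes with a gene-end peak ran from -6 to -3.5 and that in distal peaks from -57.5 to -42.7. Day 0 only gene-end calls ran from 1 to 2, with Rb1 added without day 1 replicate 1 and Mcm2 without day 1 replicate 2. Day 1 only gene-end calls stayed at 0, genes with a gene-end peak in all libraries ran from 26 to 31, and genes with a day 0 only distal region from 16 to 19. Genes with a day 1 only distal region ran from 0 to 2, the 2 without day 1 replicate 3. Leaving out a library loosens these rules, so such counts could hardly fall and their ranges do not measure stability. Shares of all coding genes were not counted for them. The number ranked higher at day 1 ran from 6 to 9 and the number ranked lower from 3 to 7. The 9 and 7 were without day 1 replicate 1, where 16.2% and 15.5% of all ranked genes qualified. Over all settings with a library left out, 13.9% to 16.9% of all ranked genes were higher and 12.6% to 15.5% lower. With all 6 libraries these shares were 10.0% and 8.85%. With the replicate block, where each numbered pair had to move the same way, 8 genes were higher (30.8%) and 4 lower (15.4%), against 18.7% and 17.4% of all ranked genes. Since it is not known whether the numbers pair the libraries, no conclusion about strength is drawn from this.

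None of the 9 non-overlapping rank differences changed sign under any setting in which the gene was ranked. The 9 were picked for non-overlap, so leaving out a library could hardly turn their sign. The replicate block leaves these differences unchanged by construction. Those settings therefore do not measure stability. With gene ends of 500 bp, Ccna2 and Cdt1 were not ranked. Ranks by summit pileup ended the call for Btg2 (4.05) and Ccnb1 (-13.2), and the looser rule of a peak in at least 2 of 3 libraries that of Cdkn2c (-23.6). The cause was not tested.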
